A study of Homo sapiens with 6 samples.

Results

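Insulin and insulin-like growth factor (IGF) signaling was followed through 10 genes in human hepatocellular carcinoma cells that overexpressed transketolase (TKT), an enzyme of the pentose phosphate pathway. The genes were the IGF binding proteins IGFBP1 to IGFBP5, the ligand IGF2, the receptors IGF1R and INSR, and the receptor substrates IRS1 and IRS2. They are 10 of the 22077 genes of the count table, taken by their symbols. The list was chosen from the measured values of this same contrast, so the values of these 10 genes are a description. They were part of the fit over all genes, and its calls on them are counted below but support nothing.

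RNA was sequenced from 3 TKT-overexpressing and 3 control libraries of a liver cancer cell line. The label of the line is close in spelling to Huh7, the Results of the study name Huh7 and its Methods name HCCLM3, so which line was sequenced is not settled here. TKT came from a plasmid of the type pTSB02-GFP-PURO introduced by transfection, so its level is not that of the endogenous promoter, and the control cells are labelled VC and control group, with nothing said of what they received. The labels call the replicates separate samples, and the Methods say in general that experiments were repeated independently, but neither says that these libraries came from separate cultures, so p-values measure only the spread between these samples.

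Insulin and the IGFs are hormones that bind receptor tyrosine kinases on the cell surface, and the activated receptors phosphorylate the IRS docking proteins, which start the PI3K, AKT and mTOR cascades. IGF binding proteins are secreted, hold IGFs outside the cell and set how much ligand reaches the receptors. Liver is a main source of circulating IGFs and of several binding proteins, and in hepatocytes insulin represses IGFBP1 and IRS2, in part by keeping FOXO transcription factors out of the nucleus.

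The TKT libraries held 37096156, 31188058 and 32406994 counts, and the control libraries 31618541, 30148788 and 33815829. TKT itself had 9402, 9549 and 9392 CPM (counts set to the same library size with TMM factors) in the TKT libraries and 497, 469 and 515 CPM in the control libraries. The labels and the overexpressed gene therefore matched in all 6 libraries. The log2 fold change of TKT was 4.26 (standard error 0.04, edgeR adjusted p = 1.2e-25).

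Of 10 hepatocyte markers, 10 had rows in the table, and AFP was the most abundant. Summed over the list, their level was 5972, 6023 and 6103 FPKM (fragments per kilobase of gene length, scaled to library depth) in the TKT libraries and 5764, 5839 and 5888 FPKM in the control libraries. APOB, the main protein of very low density lipoprotein, had only 0 to 6 counts in any library. FGB, the fibrinogen beta chain, was higher in the TKT libraries (log2 fold change 0.50, standard error 0.03, edgeR adjusted p = 8.9e-10). HNF4A, a hepatocyte transcription factor, was lower (log2 fold change −0.15, standard error 0.04, edgeR adjusted p = 0.0072), a call that was lost without TKT replicate 1 (edgeR adjusted p = 0.0555). Rows for other cell types were present for 5 of 7 fibroblast, 2 of 4 endothelial and 4 of 5 immune markers. Apart from LYZ, PECAM1, PDGFRB with 39 to 85 counts and COL1A1 with 6 to 29 counts, they had at most 6 counts in any library, and COL1A2, LUM, VWF, CD68 and CD3E had at most 2. The fibroblast list summed to between 0.233 and 0.415 FPKM with PDGFRB most abundant, and the endothelial list to between 1.95 and 2.62 FPKM with PECAM1 most abundant. LYZ, lysozyme, made up nearly the whole immune list, which summed to 68.6, 66.1 and 71.4 FPKM in the TKT libraries and 83.0, 89.1 and 89.8 FPKM in the control libraries. Without LYZ, the immune list stayed at or below 0.0597 FPKM. LYZ was lower in the TKT libraries (log2 fold change −0.35, standard error 0.05, edgeR adjusted p = 1.7e-05), and its part in the values of the 10 genes was not tested. In such bulk libraries fewer cells of a type and less RNA per cell cannot be told apart.

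The largest differences among the 10 genes lay in binding proteins and in IRS2, while IGF2, IGF1R and IRS1 were close to equal between the groups. In 7 of the 10 genes every TKT library lay above every control library in CPM, against 14.1% of all tested genes that were apart in that direction. The 7 were all 5 binding proteins, INSR and IRS2, of which IGFBP2 was not apart in FPKM or in raw counts. With its adjusted p-value set to stay under 0.05, edgeR called 5 of the 10, all higher, where it called 10.6% of the 14162 tested genes, 5.69% as higher and 4.94% as lower. With an absolute log2 fold change over 1 in addition, 2 of the 10 were called, IGFBP1 and IGFBP5, against 0.727% of tested genes. Of the 5 calls, that of IGFBP3 held in all 15 other settings. That of IGFBP1 was lost without TKT replicate 1, that of IRS2 without TKT replicate 2 and in limma on log2(FPKM + 0.1), and that of INSR without TKT replicate 1 or control replicate 3 and in limma with either pseudocount. The call of IGFBP5 was lost in 8 of the 13 settings that gave an adjusted p-value, among them the omission of any single library but control replicate 1. Without TKT replicate 1, 2 of the 10 were called, IGFBP3 and IRS2, and only IRS2 of them with a log2 fold change over 1. Omitting control replicate 1 gave 6 calls, the same 5 and IGFBP4. Since the same contrast chose the genes, nothing is read from these counts.

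**Figure D1:**
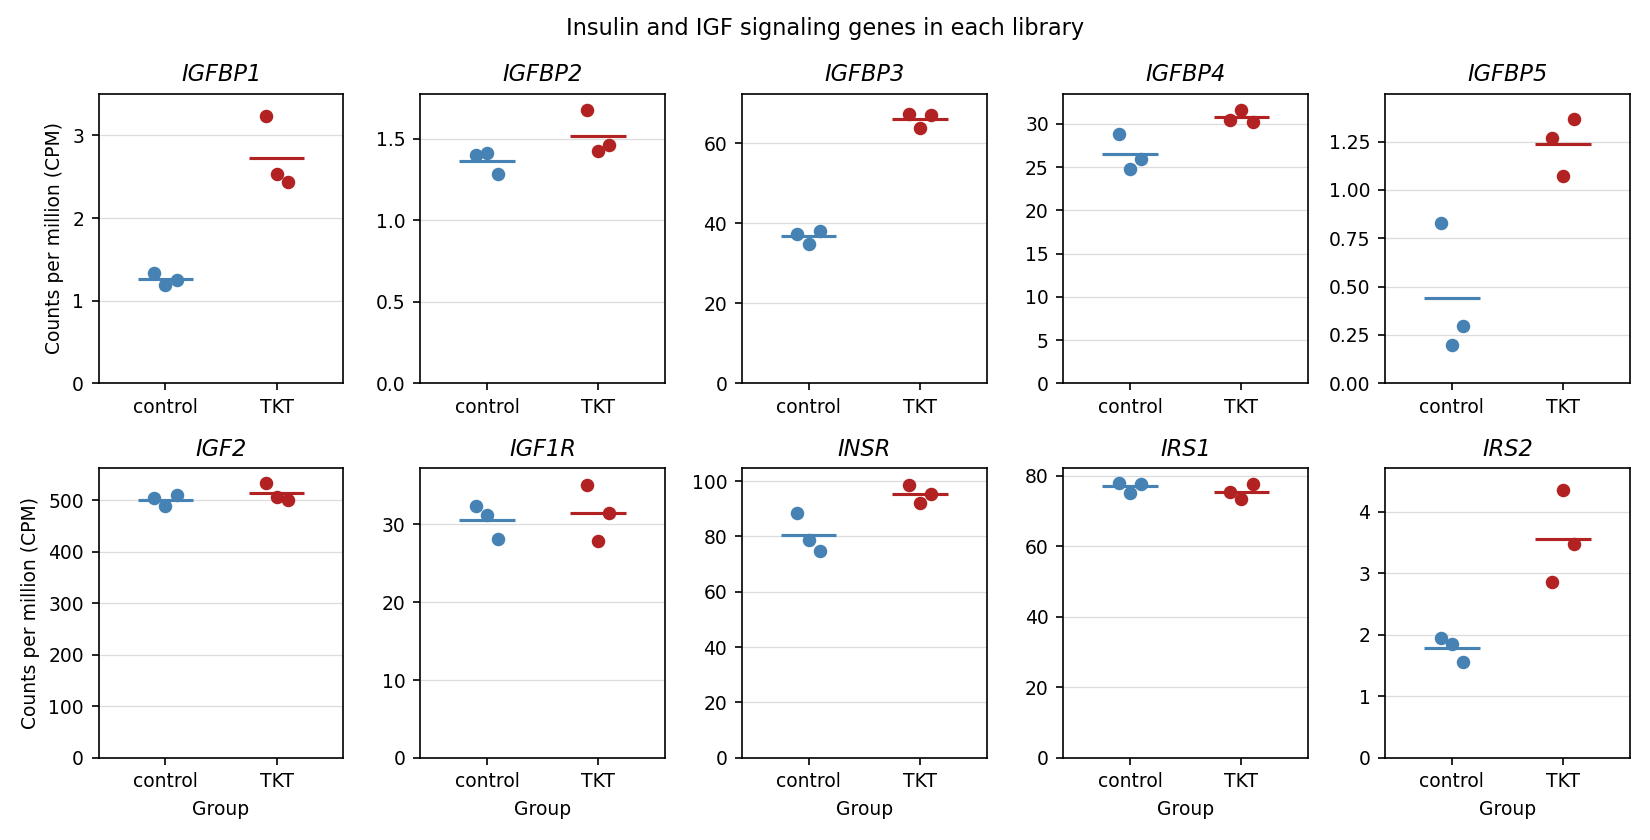
Level of the 10 genes in each library, in CPM on axes that start at 0. Points are libraries, 3 for each group, and lines are group means. IGFBP3 sits between 63.8 and 67.4 CPM in the TKT libraries and between 34.9 and 38.1 CPM in the control libraries, whereas the points of IGF2, IGF1R and IRS1 overlap between the groups.

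IGFBP3, the main carrier of IGFs in blood, had a large and closely repeated difference. By GENCODE 29 on GRCh38, from which all gene positions here come, it occupies 45912245 to 45921874 of chromosome 7 (minus strand). Its level was 67.4, 63.8 and 67.1 CPM in the TKT libraries and 37.3, 34.9 and 38.1 CPM in the control libraries. All TKT libraries were high, all control libraries were low, and the gap between the groups was far wider than the spread within either. The means were 66.1 ± 2.01 CPM and 36.7 ± 1.63 CPM (SD, n = 3 each), a 1.80-fold difference with a log2 fold change of 0.85 (standard error 0.06).

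IGFBP4, a binding protein that mostly inhibits IGF action, lies on chromosome 17 from 40443461 to 40457731 on the plus strand. It had 30.4, 31.6 and 30.3 CPM in the TKT libraries and 28.8, 24.7 and 26.0 CPM in the control libraries. The groups did not overlap, but the nearest libraries, TKT replicate 3 and control replicate 1, were close together. Its log2 fold change was 0.21 (standard error 0.07), so IGFBP4 differed much less than IGFBP3 at a similar abundance. That value was 0.28 without control replicate 1, the only setting in which IGFBP4 was called.

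The 250 bases upstream of the start sites of IGFBP3 and IGFBP4 are shown because these genes supplied most of the binding protein transcripts and differed in how far the groups lay apart. The IRS1 and IRS2 windows follow as those of the substrates whose groups overlapped (IRS1) or lay apart (IRS2). Promoter windows from RefSeq on GRCh38.p14 matched 8 of the 10 genes, all but IGFBP1 and IGF2, with 10 windows in all. Capitals mark the motifs found, searched on both strands: TATAAA or TATATA as a TATA motif, TGTTTTG as an insulin response element core and TGTTTAC as a FOXO core. The FOXO core and the insulin response element core share their opening letters TGTTT but cannot match at the same place, and neither overlaps the TATA motif. The windows, read 5′ to 3′ on the strand of the gene, were chr7:45921273-45921522 (minus) for IGFBP3, chr17:40443200-40443449 (plus) for IGFBP4, chr2:226799821-226800070 (minus) for IRS1 and chr13:109786584-109786833 (minus) for IRS2. RefSeq and GENCODE place some start sites differently, and the IGFBP3 window lies inside the longer GENCODE extent of the gene.
IGFBP3: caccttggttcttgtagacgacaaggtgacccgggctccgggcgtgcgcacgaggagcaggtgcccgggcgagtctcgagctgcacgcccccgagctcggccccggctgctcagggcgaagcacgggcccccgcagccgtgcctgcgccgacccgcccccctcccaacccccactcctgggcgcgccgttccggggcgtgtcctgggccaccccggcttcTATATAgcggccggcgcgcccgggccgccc
IGFBP4: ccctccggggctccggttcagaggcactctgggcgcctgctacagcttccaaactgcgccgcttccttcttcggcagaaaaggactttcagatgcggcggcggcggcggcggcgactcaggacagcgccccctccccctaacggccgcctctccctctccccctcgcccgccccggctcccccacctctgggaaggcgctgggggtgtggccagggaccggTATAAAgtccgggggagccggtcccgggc
IRS1: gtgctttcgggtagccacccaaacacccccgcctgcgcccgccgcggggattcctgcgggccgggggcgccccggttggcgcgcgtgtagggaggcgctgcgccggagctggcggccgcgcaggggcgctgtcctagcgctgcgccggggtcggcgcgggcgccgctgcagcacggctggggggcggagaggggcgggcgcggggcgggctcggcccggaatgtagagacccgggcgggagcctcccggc
IRS2: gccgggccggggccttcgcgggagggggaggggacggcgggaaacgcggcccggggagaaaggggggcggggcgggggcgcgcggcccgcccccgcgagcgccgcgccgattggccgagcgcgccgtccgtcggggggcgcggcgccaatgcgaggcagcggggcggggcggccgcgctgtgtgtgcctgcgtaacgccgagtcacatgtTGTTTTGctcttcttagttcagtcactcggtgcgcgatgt

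The IGFBP3 window holds TATATA, which starts 30 bases before the start site, and the IGFBP4 window holds TATAAA, which starts 29 bases before it. A TATA motif of either spelling was found in 12.8% of all 35116 windows of this length. The IRS2 window holds TGTTTTG, which starts 40 bases before the start site, a spelling found in 4.3% of all windows. TGTTTAC was found in 2.98% of all windows and in none of those of the 10 genes. The windows of IRS1, IGF1R, INSR, IGFBP2 and IGFBP5 held none of these motifs. The share of G and C was 76.0% for IGFBP3, 71.6% for IGFBP4, 76.4% for IRS2 and 80.8% for IRS1, where the median of all windows was 58.0%. A match describes the letters of a window only.

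IGFBP1, a binding protein made mostly by liver and repressed by insulin, was low in abundance and had a larger difference. It lies on chromosome 7 from 45888357 to 45893668 on the plus strand, 18.6 kilobases from IGFBP3. Its counts were 120, 78 and 80 in the TKT libraries and 42, 36 and 42 in the control libraries. As CPM these were 3.24, 2.53 and 2.43 against 1.34, 1.18 and 1.25. The TKT libraries were all high, with replicate 1 above the other two, and the groups did not overlap. The log2 fold change was 1.12 (standard error 0.25), a 2.17-fold difference.

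Low counts in this table carry a limit that may bear on rare transcripts. Among genes with 1 to 20 counts in a library, between 60.8% and 63.6% of the counts were even, against 49.2% to 50.9% among genes with 1000 or more. All 6 counts of IGFBP1 were even, but at 36 to 120 they lay above the range of 1 to 20. IGFBP5 had odd counts in the TKT libraries (47, 33 and 45) and even counts in the control libraries (26, 6 and 10). The sources used here do not say whether the mates of a read pair were counted together or singly, so whether a count stands for a fragment or for a read is not known. How far this moved the low genes was not tested.

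IGFBP5, an IGF carrier of extracellular matrix and connective tissue, had the largest log2 fold change of the 10 and the fewest counts. It lies on chromosome 2 from 216672105 to 216695525 on the minus strand. Its counts were 47, 33 and 45 in the TKT libraries and 26, 6 and 10 in the control libraries. The TKT libraries were uniformly higher, and control replicate 1 stood well above the other control libraries. Only 1 of the 3 control libraries exceeded the minimum of the expression filter, against 3 of 3 TKT libraries, so the gene passed through the group in which it was high. Its log2 fold change was 1.48 (standard error 0.46), and 2.29 without control replicate 1.

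IGFBP2, another binding protein of liver and fetal tissue, lies on chromosome 2 from 216632828 to 216664436 on the plus strand, 7.67 kilobases from IGFBP5. It had 1.67, 1.43 and 1.46 CPM in the TKT libraries and 1.40, 1.42 and 1.28 CPM in the control libraries. The groups only just failed to overlap in CPM, with TKT replicate 2 and control replicate 2 nearly equal. In FPKM they overlapped, with 0.2965 in TKT replicate 2 and 0.2998 in control replicate 2, and their raw counts met at 44. Its log2 fold change was 0.16 (standard error 0.28), smaller than its error. IGFBP1 and IGFBP3 are neighbours, as are IGFBP2 and IGFBP5, and the log2 fold changes of the first pair were 1.12 and 0.85 while those of the second were 0.16 and 1.48.

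IGF2, the fetal growth factor that many liver tumors express, was the most abundant of the 10 genes. It lies on chromosome 11 from 2129112 on the minus strand, and GENCODE 29 lists it under 2 identifiers that end at 2149603 and 2158658. Its level was 533, 506 and 501 CPM in the TKT libraries and 504, 489 and 509.9 CPM in the control libraries. The libraries of the groups overlapped, and the log2 fold change was 0.04 (standard error 0.04). The gene shares 1580 exon bases on its own strand with INS-IGF2, which had no row in the count table. IGF2 also shares 456 on the opposite strand with IGF2-AS, which had 27 to 51 counts in each library. The strand setting of the counting is not given in the sources used here.

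IGF1R, the receptor for IGFs, lies on chromosome 15 from 98648539 to 98964530 on the plus strand. It had 35.1, 27.8 and 31.5 CPM in the TKT libraries and 32.4, 31.2 and 28.1 CPM in the control libraries. The groups overlapped throughout, and TKT replicates 1 and 2 were the highest and the lowest of all 6. The log2 fold change was 0.04 (standard error 0.08).

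INSR, the insulin receptor, lies on chromosome 19 from 7112255 to 7294034 on the minus strand. Its level was 98.5, 92.0 and 95.4 CPM in the TKT libraries and 88.5, 78.8 and 74.6 CPM in the control libraries. All TKT libraries were above all control libraries, with control replicate 1 nearest to them. The log2 fold change was 0.24 (standard error 0.06), a 1.18-fold difference.

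IRS1, the docking protein through which both receptors reach PI3K, lies on chromosome 2 from 226731317 to 226799759 on the minus strand. It had 75.2, 73.3 and 77.7 CPM in the TKT libraries and 78.0, 75.1 and 77.7 CPM in the control libraries. The groups overlapped, and the log2 fold change was −0.03 (standard error 0.05).

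IRS2, a docking protein that shares in insulin action in liver, lies on chromosome 13 from 109752698 to 109786568 on the minus strand. Its counts were 106, 134 and 114 in the TKT libraries and 61, 56 and 52 in the control libraries, or 2.86, 4.34 and 3.47 against 1.94, 1.84 and 1.55 CPM. TKT replicate 2 was the highest, TKT replicate 1 the lowest of its group, and no TKT library reached down to the control range. The log2 fold change was 1.00 (standard error 0.23), a 2.00-fold difference, whereas its paralog IRS1 did not differ beyond the spread of its libraries.

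Set side by side by role, the binding proteins had log2 fold changes between 0.16 and 1.48 with a median of 0.85. The receptors and substrates lay between −0.03 and 1.00 with a median of 0.14, and IRS2 alone exceeded INSR among them. All 10 genes together had a median of 0.23, where all tested genes had a median of 0.00. As IGFBP5 passed the filter through the TKT libraries, these medians support nothing about the groups of genes. Within the binding proteins, the values of IGFBP1, IGFBP3 and IGFBP5 were larger than those of IGFBP2 and IGFBP4.

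**Figure D2:**
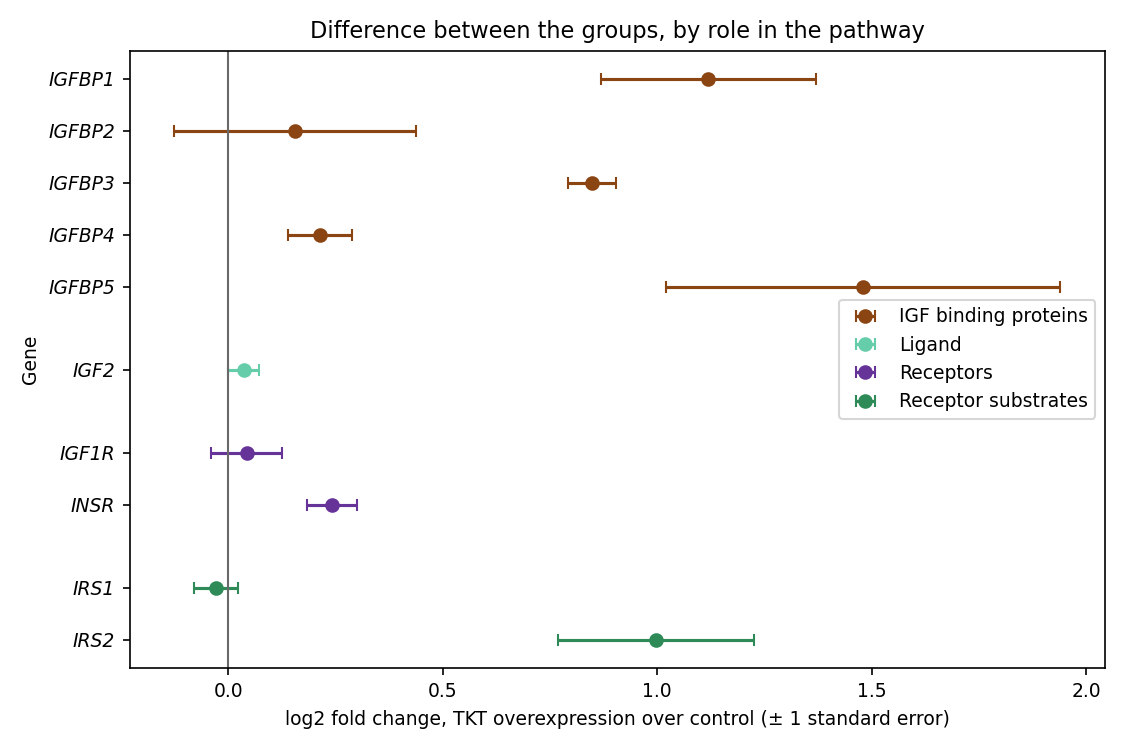
Log2 fold change of TKT-overexpressing over control libraries for the 10 genes, ordered and coloured by role. Points are fitted values from 3 libraries a group and bars are 1 standard error on each side. IGFBP5 has the widest bar, with a standard error of 0.46, and IGF2 and IRS1 lie at 0.04 and −0.03.

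Levels were compared between genes as FPKM, which takes gene length into account. In control libraries IGF2 came first at 69.7 ± 0.950 FPKM (SD, n = 3), followed by IGFBP4 at 12.0 ± 0.885 FPKM. IGFBP3 at 8.00, IRS1 at 7.63 and INSR at 7.40 FPKM came next, and the libraries of neighbours in this trio overlapped. IGF1R followed at 2.18 FPKM, then IGFBP1 at 0.762, IGFBP2 at 0.286, IRS2 at 0.217 and IGFBP5 at 0.0677 FPKM, with no overlap between neighbours from INSR downward. The IGF2 transcript thus exceeded every binding protein transcript in the control cells, and IRS2 was far below IRS1.

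In the TKT libraries IGF2 again came first, at 71.7 ± 2.35 FPKM (SD, n = 3). IGFBP3 at 14.4 ± 0.587 FPKM moved level with IGFBP4 at 13.9 ± 0.188 FPKM, and the libraries of these genes overlapped. INSR at 8.78 FPKM now lay above IRS1 at 7.51 FPKM without overlap. IRS2 at 0.435 and IGFBP2 at 0.320 FPKM overlapped, and IGFBP5 remained lowest at 0.191 FPKM.

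**Figure D3:**
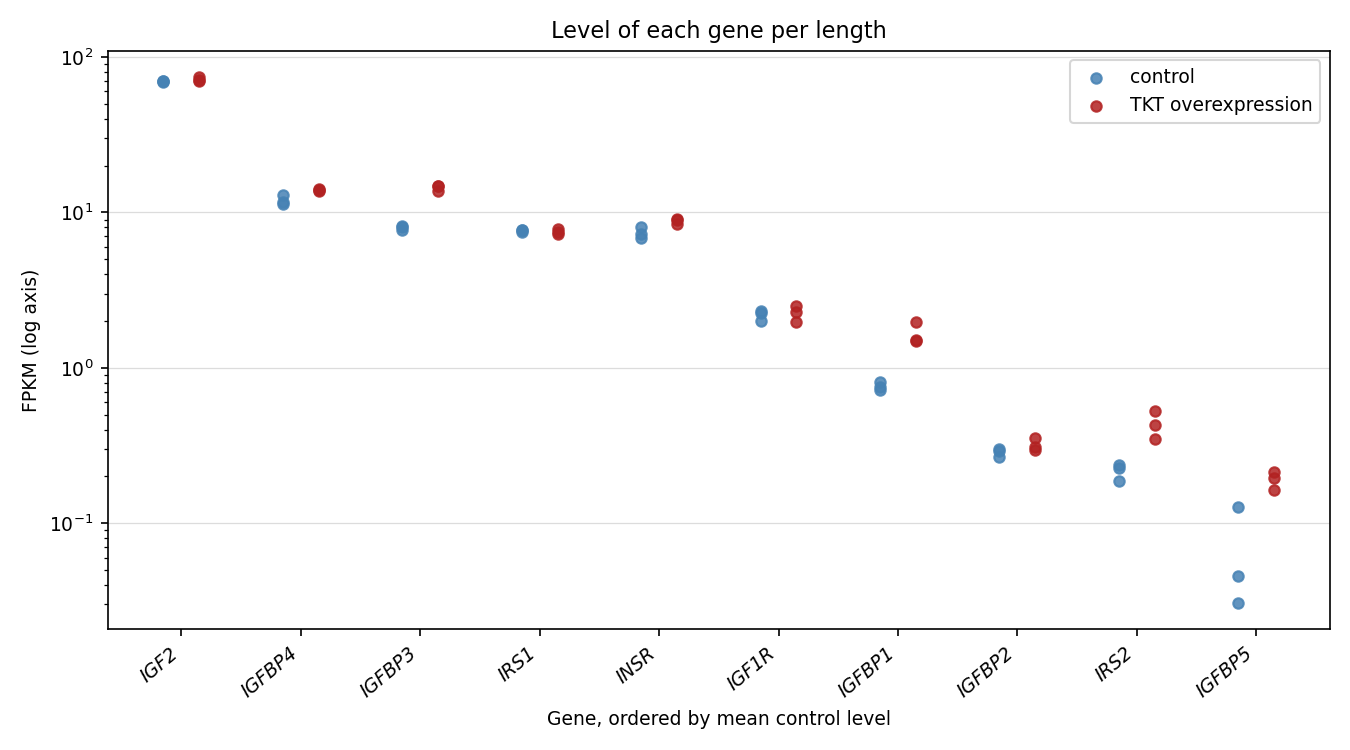
FPKM of the 10 genes on a log axis, ordered by their mean in the control libraries. Points are libraries, 3 for each group, in separate columns beside each other. IGF2 is at the top near 69.7 FPKM and IGFBP5 at the bottom, and IGFBP3 reaches the level of IGFBP4 in the TKT libraries.

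The ratio of IGFBP3 to IGFBP4, on the FPKM scale, was 1.07, 0.975 and 1.07 in the TKT libraries and 0.624, 0.682 and 0.707 in the control libraries. The ratio was thus near equality with TKT and clearly below it in every control library. Summed FPKM of the 5 binding proteins was 30.9, 29.9 and 30.8 in the TKT libraries and 22.3, 19.99 and 21.0 in the control libraries. IGFBP3 supplied 47.3 ± 1.11% of this sum in TKT-overexpressing cells and 38.0 ± 1.54% in control cells (SD, n = 3 each). The rare IGFBP1, IGFBP2 and IGFBP5 contributed little, since IGFBP3 and IGFBP4 together made up 92.9 ± 0.872% and 94.7 ± 0.209% of the sum.

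Per unit of IGF2 transcript, the summed binding proteins stood at 0.426 ± 0.00872 in TKT-overexpressing cells and 0.302 ± 0.0144 in control cells (ratio of FPKM, SD, n = 3 each). The IGF2 term of this ratio was nearly constant, so the ratio followed the binding proteins. The ratio of IRS1 to IRS2 was 21.4, 13.7 and 18.2 in the TKT libraries and 32.7, 33.2 and 40.8 in the control libraries. IRS1 remained the more abundant substrate in all 6 libraries. The ratio of INSR to IGF1R was 3.61, 4.26 and 3.90 in the TKT libraries and 3.51, 3.25 and 3.42 in the control libraries, with no overlap but a narrow gap.

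**Figure D4:**
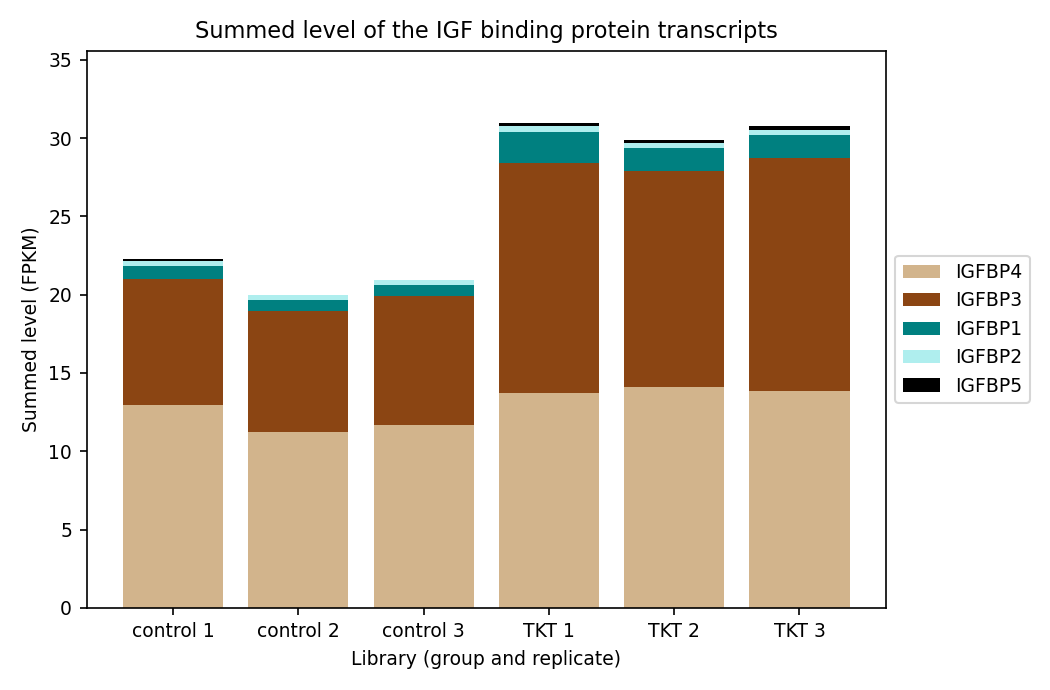
Summed FPKM of the 5 binding protein transcripts in each library, on an axis that starts at 0. Stacked bars show the share of each gene. The TKT libraries reach between 29.9 and 30.9 FPKM and the control libraries between 19.99 and 22.3 FPKM, mostly through a taller IGFBP3 segment.

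By Euclidean distance between log2 CPM profiles centred on their mean over the 6 libraries, the 5 genes most like IGFBP1 among 11285 compared were VNN3P, ACHE, AKR1D1, GDF15 and DTNA. VNN3P is a pseudogene of the vanin family, ACHE encodes acetylcholinesterase, AKR1D1 a steroid reductase of bile acid synthesis, GDF15 a stress-responsive cytokine and DTNA a dystrobrevin. Their distances lay between 0.271 and 0.347 and their log2 fold changes between 0.88 and 1.14. Fold changes close to that of IGFBP1 follow from choosing genes by this distance. IGFBP1 was taken for this comparison as the gene with the largest difference among those of the 10 whose mean log2 CPM reached 1.

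Among 98 other genes of the pathway, 92 had rows in the table and 81 were tested. With the same threshold edgeR called 13 of the 81, which is 16.0%, where 10.6% of all tested genes were called. Of these, 7 were higher (8.64%) and 6 lower (7.41%), and the median log2 fold change of the 81 was 0.02 against 0.00 for all tested genes. The changes thus ran in both directions and were mostly small. These lists, too, were chosen with earlier results of these data known. The shares here and in the lists below therefore describe the lists and support nothing about the pathway.

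Among FOXO factors and targets of FOXO, 3 of 12 tested genes rose (25%) and 0 fell, where 5.69% of all tested genes were called higher and 4.94% lower. TXNIP, an arrestin-like protein that limits glucose uptake, had 24.2, 26.3 and 26.6 CPM in the TKT libraries and 14.1, 12.0 and 12.7 CPM in the control libraries. The groups were far apart, with a log2 fold change of 0.99 (standard error 0.09, edgeR adjusted p = 1.3e-07). BCL6, a transcriptional repressor, rose by 0.59 on the log2 scale (standard error 0.09, edgeR adjusted p = 2.2e-04). CITED2, a transcriptional coregulator and the most abundant of the list, rose by 0.37 (standard error 0.05, edgeR adjusted p = 1.6e-05). FOXO1 and FOXO3 themselves were not called.

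Of the genes that insulin induces in liver 2 were tested, and both were called lower, against 4.94% of all tested genes, but only SREBF1 in every other setting. SREBF1, the transcription factor that drives lipogenic genes, had 115, 108 and 109.9 CPM in the TKT libraries and 157, 145 and 149 CPM in the control libraries. All TKT libraries were below all control libraries, with a log2 fold change of −0.44 (standard error 0.05, edgeR adjusted p = 1.1e-06). PNPLA3, a lipid droplet protein, showed a log2 fold change of −0.33 (standard error 0.10, edgeR adjusted p = 0.0439). Its call was lost in 9 of 15 other settings, among them total counts and upper quartile scaling and the omission of TKT replicate 1 or 2 or control replicate 1 or 3 (edgeR adjusted p of 0.119, 0.176, 0.151 and 0.115).

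Among inhibitors of the pathway, 3 of 15 tested genes rose (20%) and 1 fell (6.67%), against 5.69% and 4.94% of all tested genes. SOCS2, a feedback inhibitor of cytokine and growth hormone signaling, had 47, 33 and 50 counts in the TKT libraries and 16, 10 and 2 in the control libraries. It was rare in every library, and it rose 4.30-fold (standard error 0.50 on the log2 scale, edgeR adjusted p = 0.0091). SOCS2 exceeded the minimum of the expression filter in 2 of 3 control and 3 of 3 TKT libraries, so it passed through the group in which it was high. Its call therefore supports nothing, though the 3 of 15 here and the 7 of 81 above include it. The log2 fold change of SOCS2, 2.104, was 2.73 without control replicate 1, the highest of its group, and 1.61 without control replicate 3. It was 1.052 in limma on log2(FPKM + 0.1) and 0.20 in limma on log2(FPKM + 1). PHLPP2, a phosphatase that acts on AKT, and PTPRF, a receptor phosphatase and the most abundant of the list, rose by 0.29 and 0.11 (edgeR adjusted p = 0.0480 and 0.0416), calls that were lost in 9 and 8 of 15 other settings. DDIT4, a stress-induced inhibitor of mTOR complex activity, fell by 0.44 on the log2 scale (standard error 0.07, edgeR adjusted p = 1.3e-04).

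In the mTOR arm, 1 of 16 tested genes rose and 1 fell, which is 6.25% each, against 5.69% and 4.94% of all tested genes. RICTOR, a scaffold of the mTOR complex that phosphorylates AKT, rose by 0.22 (standard error 0.06, edgeR adjusted p = 0.0277), a call that was lost in 7 of 15 other settings. RPS6KB2, an S6 kinase, fell by 0.25 (standard error 0.05, edgeR adjusted p = 0.0017). RPS6, the ribosomal protein it acts on and the most abundant of the list, was not called, with a log2 fold change of 0.09 (standard error 0.04). Of 12 tested genes of the PI3K and AKT arm, AKT2, the AKT kinase most tied to insulin action, was the only call (8.33%, against 10.6% of all tested genes). It was the most abundant of its list by mean log2 CPM, though not by mean FPKM in the TKT libraries. AKT2 showed a log2 fold change of −0.23 (standard error 0.04, edgeR adjusted p = 7.4e-04).

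None of 14 tested adaptors and docking proteins was called by edgeR, against 10.6% of all tested genes, and 1 had an unadjusted p-value under 0.05. DESeq2 called 1, SHC1, the most abundant of the list, and limma on FPKM called 0. SHC1, an adaptor between receptors and RAS, showed a log2 fold change of −0.10 (standard error 0.04, edgeR adjusted p = 0.0767). Of 5 tested binding proteins and proteases outside the 10 genes 1 was called (20%, against 10.6% of all tested genes). It was STC2, a secreted inhibitor of the protease PAPPA that cleaves IGFBP4, and STC2 fell by 0.24 (standard error 0.04, edgeR adjusted p = 4.3e-04). ADAM9, the most abundant of that list by mean log2 CPM though below STC2 in FPKM, was not called. The log2 fold change of ADAM9 was −0.06 (standard error 0.05).

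The remaining lists held no call, where 10.6% of all tested genes were called. IGF2R, the receptor that clears IGF2, showed a log2 fold change of 0.03 (standard error 0.04), turning to −0.016 without control replicate 3. IGF2BP1, the most abundant of 3 tested proteins that bind IGF2 mRNA, stood at −0.07 (standard error 0.03) on that scale, and IGF2-AS at 0.25 (standard error 0.33). In these lists edgeR found 0 genes with an unadjusted p-value under 0.05, and DESeq2 and limma also called 0. IGF1, the other IGF ligand, was not tested, with 1 to 4 counts in each library.

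Of the 13 calls, those of RICTOR, PTPRF, PHLPP2 and PNPLA3 were lost in 7, 8, 9 and 9 of 15 other settings, among them omissions of single libraries. The other calls outside the 10 genes, 9 in all, held in every setting that gave them an adjusted p-value.

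**Figure D5:**
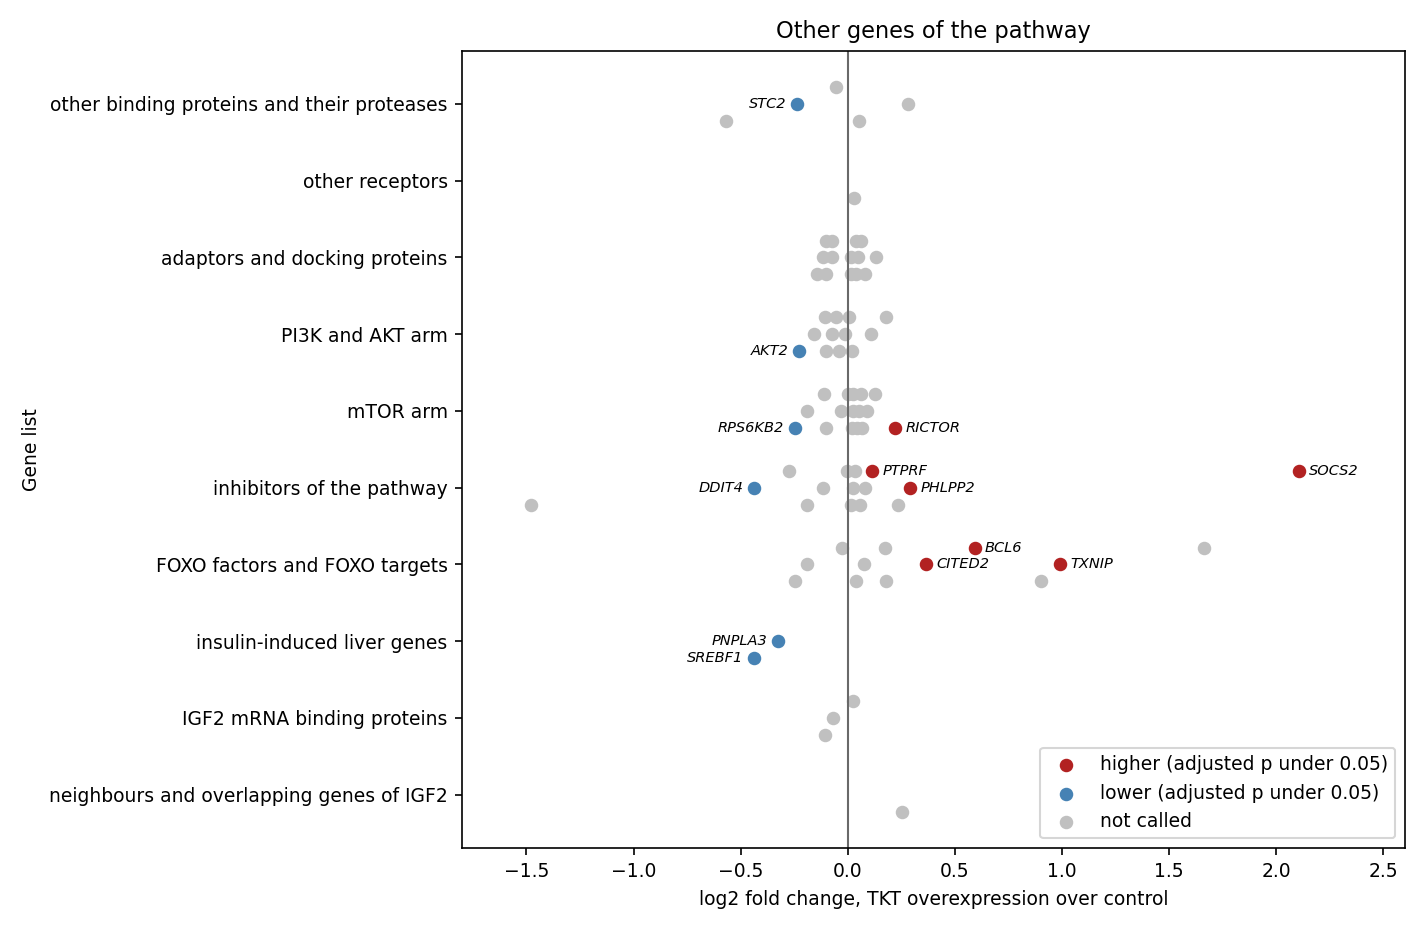
Log2 fold change of the 81 other tested genes of the pathway, in rows by gene list. Red points rose and blue points fell by edgeR's test with the threshold of 0.05, and grey points were not called. SOCS2 and TXNIP, the latter at 0.99, lie farthest right among the called genes, and SREBF1 and DDIT4 at −0.44 farthest left.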

How the data were processed

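The authors trimmed 150-base paired reads with fastp 0.22.0, aligned them with HISAT2 2.1.0 to hg38 and counted them per gene with featureCounts, according to the Methods and the submitters' processing notes. The deposited counts are whole numbers per gene symbol without normalization. The deposited FPKM values are these counts divided by a factor per gene and per library, within 1% for 99.8% of genes with counts in every library. Annotation, strand and multi-mapping options are not given in the sources used here.

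Counts of the 6 libraries (30148788 to 37096156 in all) were filtered with filterByExpr (minimum count 10) and scaled by TMM, and TKT and control libraries were compared by the quasi-likelihood test with robust dispersions in edgeR 4.0.16 under R 4.3.3, without a block. P-values were adjusted by Benjamini-Hochberg over all 14162 tested genes, with a threshold of 0.05. The common biological coefficient of variation was 0.113. Standard errors are the log2 fold change divided by the square root of the F statistic. Between libraries, chi-square over degrees of freedom was 7.27 to 10.0 within a group and 31.3 to 38.6 between groups, so no library was a copy of another. Log2 CPM profiles used a prior count of 2. Positions came from GENCODE 29. Scripts were tested on simulated counts.

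Alternatives were other scalings, other filters, DESeq2 1.42.0, limma 3.58.1 on log2(FPKM + 1) and log2(FPKM + 0.1), the replicate number as a block, each library left out, and CPM per kilobase of exon for levels. The genes named are the 10 genes, TKT, called genes of the pathway lists, the most abundant tested gene of each list by mean log2 CPM, and the 5 genes most like IGFBP1. FOXO1, FOXO3, IGF1, cell type markers, PDK4 and G6PC1 stand outside this rule, and PDK4, G6PC1, FOXO1 and FOXO3 were chosen after their values were seen. The 10 genes and all lists were chosen with earlier results of these data known.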

Additional observations from a re-analysis of the deposited data

How the results depend on the processing

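The direction of 9 of the 10 genes held in every other setting that gave a value, and IGF1R, near 0 in all, changed sign in 2 of 15. Of the 14162 tested genes, 1505 were called at an adjusted p-value under 0.05 and 103 of them with an absolute log2 fold change over 1. The latter number was 160 without an expression filter and 63 with DESeq2. In limma on log2(FPKM + 1) the numbers were 827 and 13, and 4 other pathway genes were higher. That pseudocount is large beside low FPKM values, and log2 fold changes there were 0.59 for IGFBP1, 0.037 for IGFBP2, 0.78 for IGFBP3, 0.16 for IGFBP5 and 0.24 for IRS2. In limma on log2(FPKM + 0.1) the numbers were 826, 66 and 4, and IGFBP5 had 0.83 and IRS2 0.74. Same-numbered libraries did not deviate together (correlations of −0.00192, −0.0252 and 0.0156), and not every library correlated best with its own number. Such correlations showed no pairing by number but cannot exclude that same-numbered samples were handled together. With the replicate number as a block, 697 genes were called, 67 with an absolute log2 fold change over 1, and 4 other pathway genes were higher. Of the 13 calls among other pathway genes, 9 were kept under the block, where HNF4A was not called (edgeR adjusted p = 0.0627), and the cause of the difference was not tested. As CPM per kilobase of exon, IGF2 stood at 65.2 and IRS1 at 7.73 in control libraries, with the order of the 10 genes unchanged.

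With each library left out, 791 to 1586 genes were called, fewest without TKT replicate 1 (791) and control replicate 1 (881). Other pathway genes called higher numbered 4 to 6 against 7, with 4 without TKT replicate 2, TKT replicate 3 or control replicate 1. IGFBP5 lay between 1.14 and 2.29, the latter without control replicate 1, and had no value where every library needed 10 counts. IGF2R lay between −0.016 and 0.084, the former without control replicate 3. The edgeR adjusted p of RICTOR rose to 0.0569, 0.194, 0.103 and 0.0930 without TKT replicate 2, TKT replicate 3, control replicate 1 and control replicate 3. That of PTPRF was 0.212, 0.0557, 0.0959, 0.105 and 0.172 without TKT replicates 1, 2 and 3 and control replicates 1 and 3. That of PHLPP2 was 0.107, 0.187, 0.0673, 0.149 and 0.0907 without TKT replicates 2 and 3 and control replicates 1, 2 and 3. That of PNPLA3 was 0.119, 0.176, 0.151 and 0.115 without TKT replicates 1 and 2 and control replicates 1 and 3. Fewer libraries enter each of these fits. IGFBP5 and SOCS2 had at most 47 and 50 counts in a library.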

Other observations

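Among genes of the pathway with few counts, PDK4 and G6PC1 were chosen after their values were seen, and neither was called with the expression filter and all 6 libraries. PDK4, a kinase that inhibits pyruvate dehydrogenase and a target of FOXO factors, had 46, 44 and 42 counts in the TKT libraries and 2, 8 and 30 in the control libraries. The TKT libraries were close to each other and the control libraries were spread widely, and only 1 of the 3 control libraries exceeded the minimum of the expression filter, against 3 of 3 TKT libraries. Its log2 fold change was 1.66 (standard error 0.57, edgeR adjusted p = 0.0776), and 2.99 without control replicate 3 (edgeR adjusted p = 0.0019). PDK4 was also called without an expression filter (edgeR adjusted p = 0.0022), but in none of the other 11 settings that gave an adjusted p-value. Without control replicate 1 the log2 fold change was 1.16 (edgeR adjusted p = 0.159), and it was 1.154 in limma on log2(FPKM + 0.1) and 0.25 in limma on log2(FPKM + 1). G6PC1, the catalytic subunit of glucose-6-phosphatase, had 34, 16 and 30 counts against 14, 10 and 16, which met at 16 counts. Its log2 fold change was 0.90 (standard error 0.46, edgeR adjusted p = 0.241).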
